A study of Mus musculus with 18 samples.

Results

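The nivolumab response of the mouse colon was compared with that of the spinal dorsal horn, where sensory fibres end in the cord. Of the 18 libraries of the series, 12 entered the comparison, as 4 groups of 3: colon and dorsal horn of mice with bone cancer that received nivolumab, and colon and dorsal horn of mice with bone cancer that received control IgG. The labels give the genotype as WT in all groups, and both groups carried the tumour, so that they differed by the antibody given. The 6 libraries of sham mice with IgG were not part of the contrasts. They entered the filter on low counts, the scaling and the estimate of the spread. Nivolumab was developed against human PD-1, a brake on T cells, and the labels do not say how far it binds the mouse receptor. They also give no strain, sex, age, dose or time, and do not say whether the 3 libraries of a group came from separate animals or whether the same animals gave both tissues. The p-values therefore describe only how these libraries scatter, and that scatter may be technical. Genes were members where both count tables held them, which was the case for 14770 of 15410 gene symbols, and 14164 of these passed a filter on low counts and were tested.

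For each gene, the response is the log2 fold change of nivolumab over cancer within 1 tissue, and the difference is the colon response minus the dorsal horn response. A negative difference means that the colon response lay below that of the dorsal horn. Levels are given per library in CPM, the counts scaled to a common library size. As background, PD-1 on T cells binds the ligands PD-L1 and PD-L2 and dampens T cell activation, and activated T cells release interferon gamma. Interferons bind receptors that activate transcription factors, which bind gamma-activated sites or interferon-stimulated response elements in promoters and induce antiviral, GTPase and antigen presentation genes. Ribosomal protein genes are known for a pyrimidine tract at the start of their transcripts, through which their translation is controlled together.

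Total counts ran from 20896854 to 30803957 per library in the colon and from 21855085 to 29071908 in the dorsal horn. Defining markers matched the labelled tissues: Epcam, an epithelial adhesion molecule, had 1712 to 2165 CPM in the 6 colon libraries and 0.184 to 1.25 CPM in those of the dorsal horn, and the synaptic gene Snap25 had 2863 to 3788 CPM in the dorsal horn. The low Epcam levels of the dorsal horn were 0.299, 0.472 and 0.184 CPM with nivolumab, against 0.827, 1.08 and 1.25 CPM with cancer, without overlap. Admixture markers differed between libraries as well. The nociceptor channel gene Scn10a had 304, 202 and 398 CPM in the dorsal horn libraries with nivolumab, against 0.103, 0.112 and 99.8 CPM in those with cancer. Smooth muscle genes averaged 7.39, 6.95 and 6.92 log2 CPM in the colon libraries with nivolumab, against 7.94, 9.07 and 9.48 with cancer. In bulk tissue, fewer cells of a type and less RNA per cell cannot be told apart.

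The sequences of 4 promoters are shown. Igtp, Ifit1 and Gbp2 are interferon-induced genes with a negative difference. They were picked by smallest p of the difference among interferon genes whose window holds the core of the response element. Its presence in these windows is therefore no result. Rps15a is the ribosomal protein gene whose difference passed the test. Each window runs from 250 bases before to 50 bases after the start of the transcript, from RefSeq on GRCm38.p6. In the first 3 windows the capitals mark the core of the interferon-stimulated response element (GAAA, any 2 bases, GAAA) and, in Igtp, the gamma-activated site TTCNNNGAA, each searched on both strands. In Rps15a the capitals mark the pyrimidine tract at the start. The windows lie at chr11:58199306-58199605 (plus strand), chr19:34640639-34640938 (plus strand), chr3:142620413-142620712 (plus strand) and chr7:118116098-118116397 (minus strand).
Igtp: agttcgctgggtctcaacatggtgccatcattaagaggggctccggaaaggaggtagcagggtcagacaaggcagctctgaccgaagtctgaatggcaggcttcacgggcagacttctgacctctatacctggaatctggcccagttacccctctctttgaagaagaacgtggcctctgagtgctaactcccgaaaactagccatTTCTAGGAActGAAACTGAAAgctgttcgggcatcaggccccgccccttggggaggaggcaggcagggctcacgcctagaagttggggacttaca
Ifit1: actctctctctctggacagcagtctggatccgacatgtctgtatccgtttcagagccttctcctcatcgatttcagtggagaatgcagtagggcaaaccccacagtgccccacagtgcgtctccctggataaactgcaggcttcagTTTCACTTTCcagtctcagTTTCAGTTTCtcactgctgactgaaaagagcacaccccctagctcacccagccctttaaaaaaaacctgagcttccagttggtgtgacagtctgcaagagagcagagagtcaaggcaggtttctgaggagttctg
Gbp2: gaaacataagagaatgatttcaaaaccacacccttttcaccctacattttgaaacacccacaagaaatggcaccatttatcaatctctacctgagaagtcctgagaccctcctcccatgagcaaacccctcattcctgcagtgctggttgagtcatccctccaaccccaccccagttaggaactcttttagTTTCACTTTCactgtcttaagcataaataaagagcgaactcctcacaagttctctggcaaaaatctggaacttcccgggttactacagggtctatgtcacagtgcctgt
Rps15a: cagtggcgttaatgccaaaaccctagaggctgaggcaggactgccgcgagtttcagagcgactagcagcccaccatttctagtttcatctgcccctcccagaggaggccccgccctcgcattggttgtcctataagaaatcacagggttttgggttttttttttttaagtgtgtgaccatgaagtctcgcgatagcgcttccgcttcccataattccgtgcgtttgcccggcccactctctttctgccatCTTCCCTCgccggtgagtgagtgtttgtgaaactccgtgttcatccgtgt

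The difference passed an adjusted p of 0.05 for 18 of 14164 genes (0.127%) in edgeR's quasi-likelihood test. It was negative for 14 of them (0.0988%) and positive for 4 (0.0282%), and the adjusted p ran from 0.00527 to 0.0439. The responses of 16 of the 18 had opposite signs. In 12 they were negative in the colon and positive in the dorsal horn (25.7% of all genes), and in 4 the reverse (21.4%). Selection for a large difference itself favours opposite signs. Some of these responses were near 0, with −0.02 for Fam114a1 in colon and −0.02 for Rtkn2 in dorsal horn. Of the 18, 10 (0.0706% of genes tested) had opposite signs and an unadjusted p under 0.05 in each tissue. At an unadjusted p under 0.05 the difference was found for 2325 genes (16.4%), 1523 negative (10.8%) and 802 positive (5.66%), and its median over all genes was −0.07. The number of genes past the adjusted threshold depended on the libraries used, the test and the scaling. It was 0 with only the 12 libraries compared (2160 at an unadjusted p under 0.05) and 1 to 138 when any 1 library was left out. With all 18 libraries it was 747 with DESeq2 (297 positive and 450 negative) and 27 with upper-quartile scaling (14 positive and 13 negative). With the replicate number as a block within each tissue it was 96, and 16 of the 18 genes were among them. The 18 genes kept the sign of their difference in every alternative in which they were tested.

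**Figure D1:**
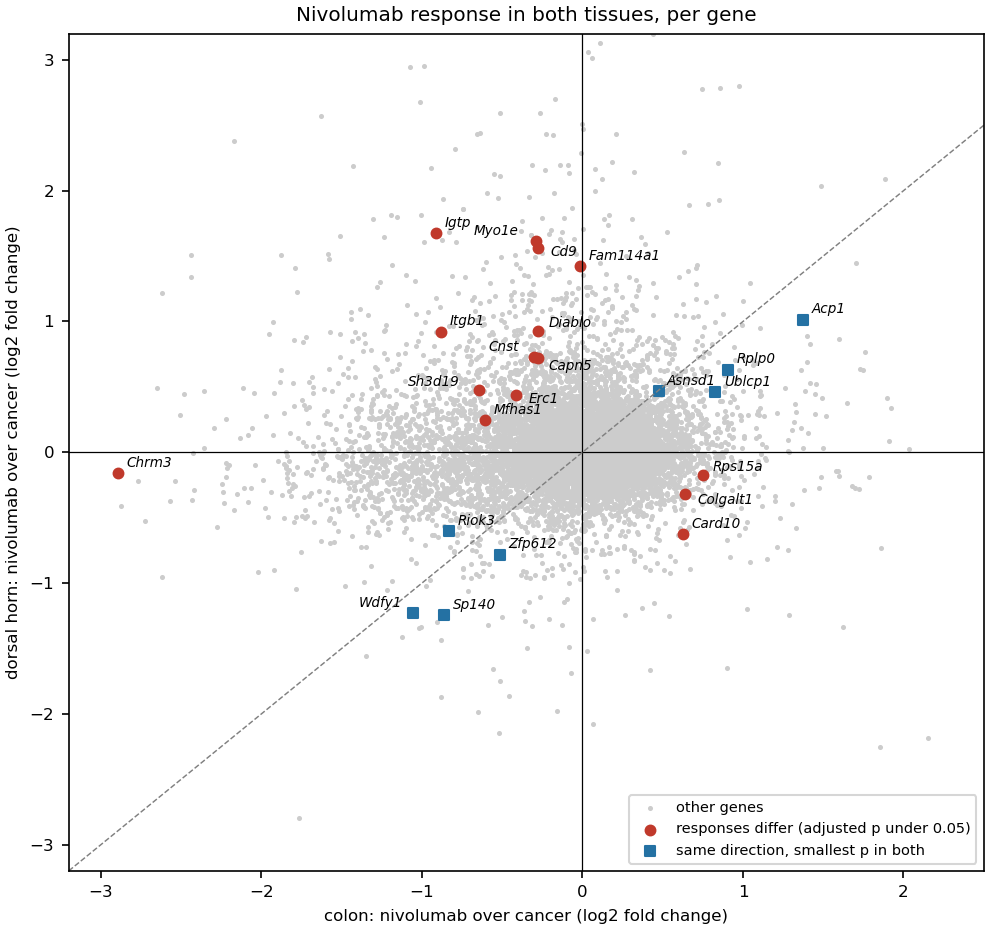
Nivolumab responses of 10667 genes with a mean of at least 1 log2 CPM in each tissue, with the colon on the x axis and the dorsal horn on the y axis (log2 fold change of nivolumab over cancer); 10 genes lie outside the axes. Red points are 15 of the 18 genes whose responses differ, most of them left of 0 and above 0, and blue squares are the 8 genes named for responses in 1 direction in both tissues, near the dashed line of equal responses.

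Most interferon response genes had a negative response in the colon and a positive one in the dorsal horn, and Igtp was among those that passed the test of the difference. Igtp, an interferon-induced GTPase of cell-autonomous defence (chromosome 11, 58199556 to 58207591), had 233, 128 and 110 CPM in colon with nivolumab, against 227, 325 and 335 CPM in colon with cancer. In the dorsal horn it had 19.3, 10.6 and 14.3 CPM with nivolumab, against 5.45, 4.48 and 3.83 CPM with cancer. All 3 dorsal horn libraries with nivolumab were above all 3 with cancer, while in the colon the groups overlapped through nivolumab 1. The lower colon and higher dorsal horn pattern without overlap in either tissue was found for 225 genes (1.59%), Igtp not among them. The response was −0.91 (SE 0.28) in colon and 1.68 (SE 0.30) in dorsal horn, and the difference of −2.59 (SE 0.41) passed the test (adjusted p = 0.0255). Igtp belongs to a family of similar GTPase genes, whose shared reads the counting may have split.

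The interferon list held 48 genes, of which 40 were in both tables and all 40 were tested. In the negative direction 2 passed, Igtp among them, and none passed in the positive one. At an unadjusted p under 0.05 the difference was negative for 30 of the 40 and positive for 0, against 10.8% and 5.66% of all genes. The response was negative in the colon and positive in the dorsal horn for 37 of the 40, against 25.7% of all genes. The list's median response was −0.41 in colon and 0.96 in dorsal horn, and its median difference was −1.35, beside medians of −0.03, 0.01 and −0.07 over all genes. In the dorsal horn contrast of the same fit 5 of the 40 passed an adjusted p of 0.05, all higher with nivolumab (all genes in either direction: 0.727%). In the colon contrast 0 passed (all genes: 1.4%).

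**Figure D2:**
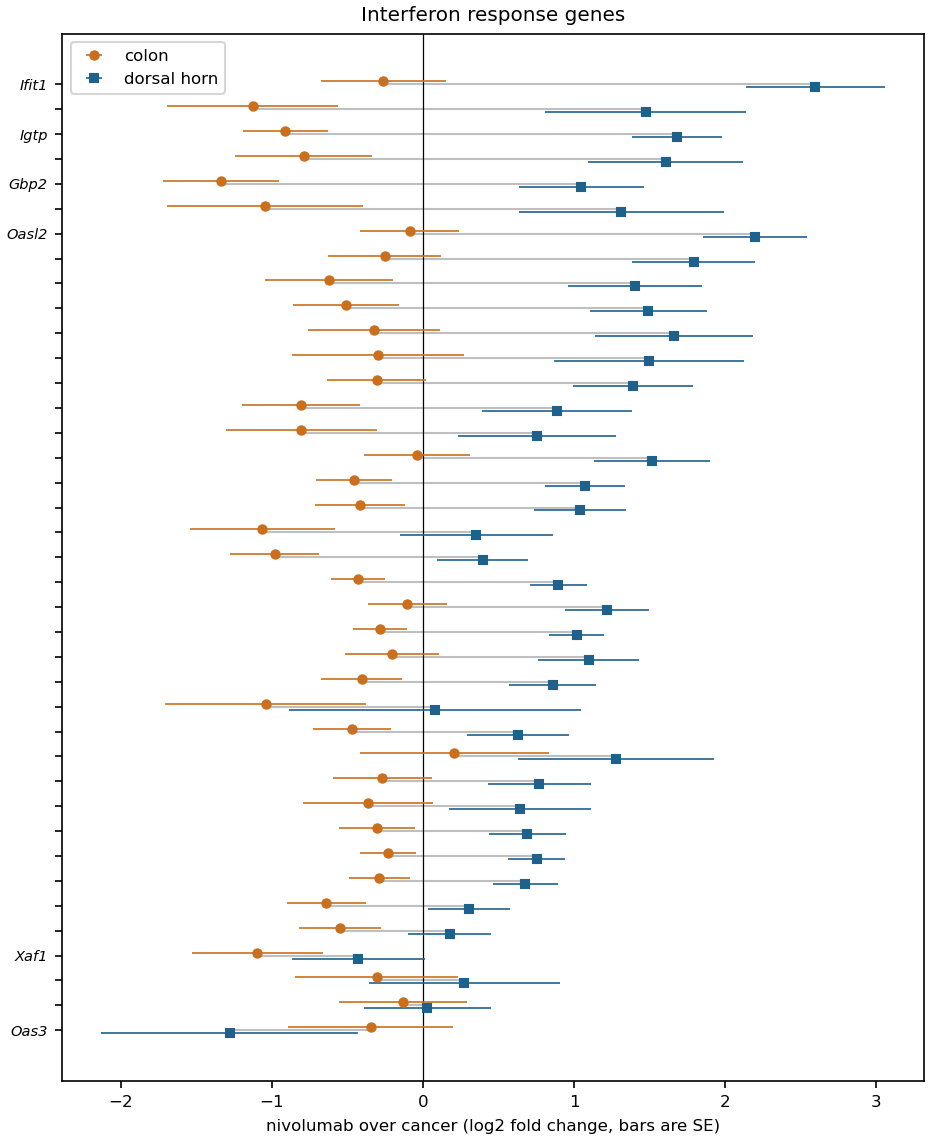
Log2 fold change of nivolumab over cancer (x axis, bars are SE) for 39 of the 40 interferon response genes, with colon as circles and dorsal horn as squares, ordered by the difference from Ifit1 at the top to Oas3 at the bottom. In most of them the colon lies left of 0 and the dorsal horn right of 0. Names are given for the genes described in the text.

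Other members of the list were named after their values were seen, for the sizes of their differences. Oasl2, a member of the oligoadenylate synthetase family, had 1037, 364 and 490 CPM in colon with nivolumab, against 834, 513 and 665 CPM with cancer, and 41.7, 28.3 and 39.2 CPM in dorsal horn with nivolumab, against 5.55, 8.14 and 10.1 CPM with cancer. Its dorsal horn groups were far apart and its colon groups overlapped, and the difference of −2.29 (SE 0.47) missed the threshold (adjusted p = 0.0571). Ifit1, which binds foreign RNA ends and whose promoter above holds the response element at 2 places, had responses of −0.26 (SE 0.42) in colon and 2.60 (SE 0.46) in dorsal horn (difference −2.86, adjusted p = 0.071). Gbp2, a guanylate-binding protein, had responses of −1.34 (SE 0.38) and 1.05 (SE 0.41) in the same order (difference −2.38, adjusted p = 0.0806). Oas3 was the 1 gene of the 40 with a positive difference (0.93, SE 1.01), and Oas3 and Xaf1 had negative responses in both tissues.

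Promoter windows were matched for 27 of the 40 interferon genes, and 15 of the 27 (55.6%) held the response element core, against 390 of 11171 tested genes with a window (3.49%). The gamma-activated site was in 7 of the 27 (25.9%), against 8.07% of all. These matches describe the letters in the windows and were not measured as binding.

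Mean levels of 2 lists bear on the interferon genes. The list's mean level in the colon was 7.37, 6.21 and 6.42 log2 CPM with nivolumab, against 7.69, 6.90 and 6.94 with cancer, so the groups overlapped through nivolumab 1. In the dorsal horn it was 3.28, 2.77 and 3.16 log2 CPM with nivolumab, against 2.12, 2.08 and 2.19 with cancer, without overlap. The ganglion neuron list moved with the nivolumab group there, with means of 5.78, 5.09 and 5.99 log2 CPM, against 0.62, 0.26 and 4.47 with cancer. Cancer 3, whose ganglion level of 4.47 lay between those of the other cancer libraries and those with nivolumab, had an interferon mean of 2.19 and an Igtp level of 3.83 CPM. With ganglion content as a covariate the median difference of the interferon list was −1.44, and 26 of its genes had an unadjusted p under 0.05 in the negative direction. Ganglion content nearly follows the nivolumab group, and its slope within groups rests mostly on cancer 3 and sham 3 (sham: 0.21, 0.31 and 4.20 log2 CPM). Here and below, fits with this covariate therefore cannot tell ganglion content and nivolumab apart.

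No antigen presentation gene passed. Of 20 class I and immunoproteasome genes on the list, 15 were in both tables and tested, 6 had a negative difference at an unadjusted p under 0.05 and none a positive one (10.8% and 5.66% of all genes), and the median difference was −0.42. The response was negative in colon and positive in dorsal horn for 8 of the 15 and positive in both for 4. B2m, the light chain of class I molecules, had 2742, 1458 and 1672 CPM in colon with nivolumab, against 2022, 3083 and 2747 CPM with cancer, and 139, 127 and 136 CPM in dorsal horn with nivolumab, against 85.0, 74.6 and 79.1 CPM with cancer. It was higher in every dorsal horn library with nivolumab and mixed in the colon (difference −1.17, SE 0.32, adjusted p = 0.102). Of 5 class II regulators tested, 2 had a negative difference (Cd74 and Ciita) and 1 a positive one (Ifi30, 0.73, SE 0.34, adjusted p = 0.299) at an unadjusted p under 0.05, and the median difference was −0.13. Cd74, the invariant chain of class II molecules, had 2065, 1531 and 1317 CPM in colon with nivolumab, against 2066, 4993 and 4139 CPM with cancer. In the dorsal horn Cd74 had 18.8, 20 and 14.9 CPM with nivolumab, against 5.69, 9.29 and 4.90 CPM with cancer. Neither tissue's groups overlapped, in opposite directions, although nivolumab 1 and cancer 1 of the colon were almost equal, and the difference of −2.62 (SE 0.52) missed the threshold (adjusted p = 0.0551).

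Ciita, the master regulator of class II genes, had responses of −1.47 (SE 0.24) in colon and 0.25 (SE 0.26) in dorsal horn, and a difference of −1.72 (adjusted p = 0.0571). Among cytokine signalling genes 0 of 45 passed, and 12 had a negative and 3 a positive difference at an unadjusted p under 0.05, against 10.8% and 5.66% of all genes. Cish, a cytokine-induced inhibitor of cytokine receptor signalling, had 15.4, 19.1 and 15.5 CPM in colon with nivolumab, against 26.5, 32.4 and 25.7 CPM with cancer, and 7.53, 6.44 and 9.09 CPM in dorsal horn with nivolumab, against 5.65, 4.74 and 5.55 CPM with cancer. It was lower in all colon libraries with nivolumab and higher in all those of the dorsal horn (difference −1.29, SE 0.24, adjusted p = 0.0546). Il10rb, a receptor chain shared by interleukin 10 family cytokines, was nearly level in the colon (0.05, SE 0.19) and had a response of 1.26 (SE 0.20) in the dorsal horn (difference −1.22, adjusted p = 0.0748).

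Of the PD-1 axis itself, no gene had a difference past the adjusted threshold, and Pdcd1 and Pdcd1lg2 had low levels. Pdcd1, the gene of PD-1, had 1.34, 0.729 and 1.16 CPM in colon with nivolumab, against 2.14, 1.77 and 0.829 CPM with cancer, and stayed under 0.5 CPM in all 6 dorsal horn libraries. Its groups overlapped in both tissues, and its difference was −0.35 (SE 1.22, adjusted p = 0.91). Cd274, the gene of PD-L1, had 33.4, 18.8 and 31.4 CPM in colon with nivolumab, against 31.9, 88.3 and 50.4 CPM with cancer, and 9.24, 6.51 and 8.39 CPM in dorsal horn with nivolumab, against 6.48, 7.5 and 7.01 CPM with cancer. The groups overlapped in each tissue (difference −1.23, SE 0.46, unadjusted p = 0.0177, adjusted p = 0.212). Pdcd1lg2, the gene of PD-L2, was at 1.06 CPM or less in all 12 libraries (difference 1.18, SE 1.06, adjusted p = 0.586). Of the 16 checkpoint genes tested, 0 passed. At an unadjusted p under 0.05 the difference was negative for 3 and positive for 1 (10.8% and 5.66% of all genes).

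**Figure D3:**
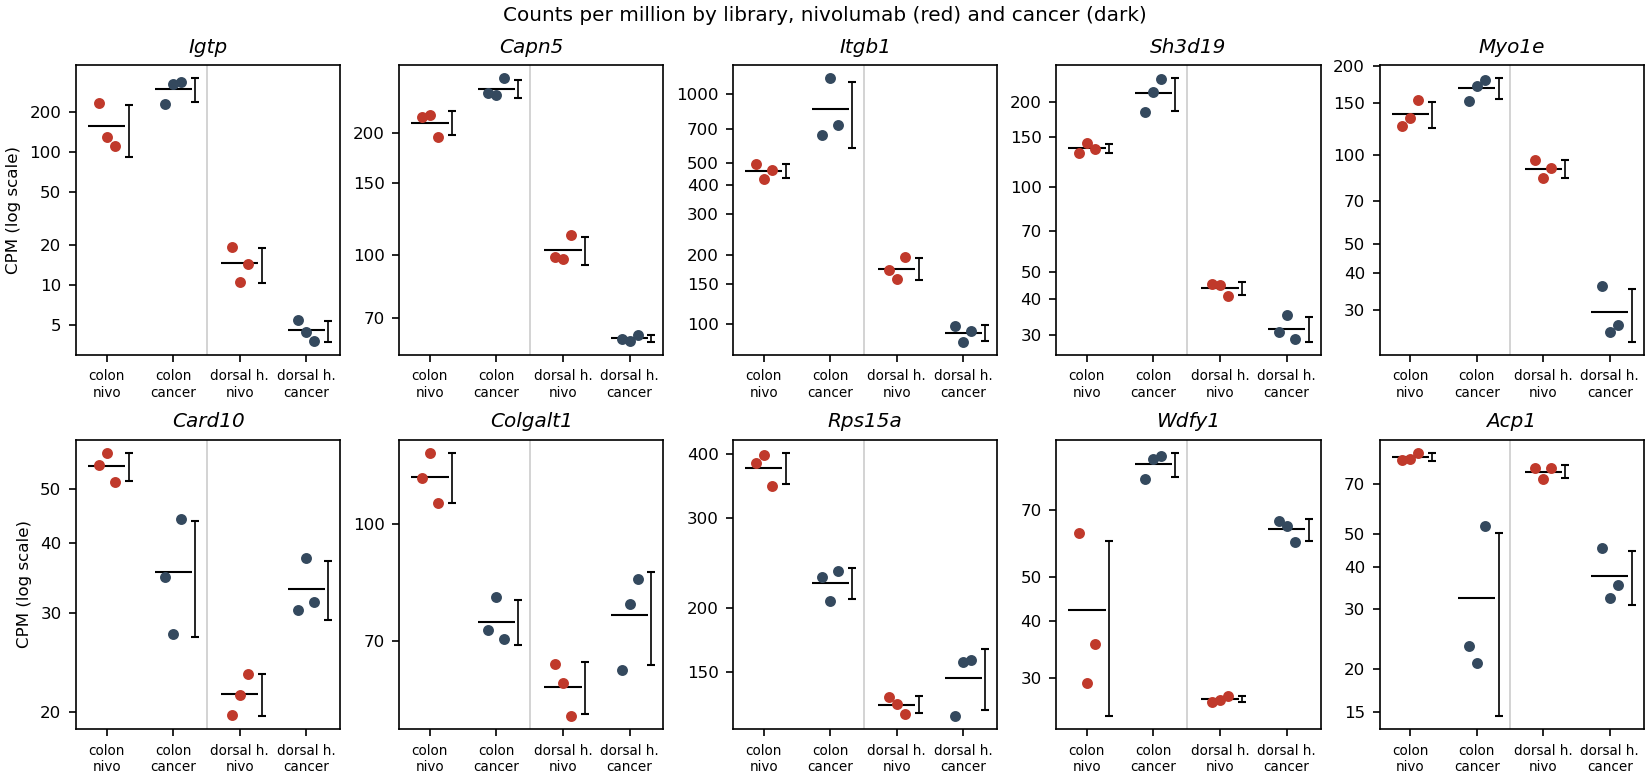
Levels of 10 genes in CPM (y axis, log scale) in the 3 libraries of each group, with nivolumab in red left of cancer in dark, and colon left of dorsal horn; lines are means and bars SD of n = 3. Igtp, Capn5, Itgb1, Sh3d19 and Myo1e are lower on average in colon with nivolumab and higher in dorsal horn with nivolumab, Card10 and Colgalt1 have the reverse pattern, Rps15a is separated in the colon, and Wdfy1 and Acp1 move in 1 direction in both tissues.

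The other negative differences included genes of cell adhesion, proteolysis and membrane traffic. Itgb1, the beta chain of many integrins (chromosome 8, 128685654 to 128733200), had 495, 429 and 466 CPM in colon with nivolumab, against 663, 1163 and 734 CPM with cancer, and 172, 157 and 195 CPM in dorsal horn with nivolumab, against 98.7, 84.3 and 93.3 CPM with cancer. The groups did not overlap in either tissue and stood in opposite order. The response was −0.88 (SE 0.19, adjusted p = 0.04) in colon and 0.92 (SE 0.19, adjusted p = 0.0446) in dorsal horn, and the difference was −1.80 (SE 0.27, adjusted p = 0.0205). Itgb1 was 1 of only 2 genes (0.0141%) past an adjusted p of 0.05 in each tissue's own comparison, and the one of the pair with opposite signs. With the smooth muscle level as a covariate the difference of Itgb1 was −1.49 (adjusted p = 0.0391). That level also follows the nivolumab group in the colon, at 6.92 to 7.39 log2 CPM, against 7.94 to 9.48 with cancer, without overlap. Sham colon ran from 5.71 to 9.33 log2 CPM. Here and below, fits with the smooth muscle covariate therefore cannot tell smooth muscle content and nivolumab apart.

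Sh3d19, an adaptor that binds ADAM proteases, had 132, 142 and 136 CPM in colon with nivolumab, against 184, 217 and 240 CPM with cancer, and 45.4, 44.9 and 41.2 CPM in dorsal horn with nivolumab, against 30.5, 35.0 and 28.9 CPM with cancer (difference −1.12, SE 0.17, adjusted p = 0.0188). Capn5, a calcium-dependent protease, had 219, 221 and 195 CPM in colon with nivolumab, against 251, 248 and 272 CPM with cancer, and 98.8, 97.5 and 112 CPM in dorsal horn with nivolumab, against 62.2, 61.3 and 63.5 CPM with cancer (difference −1.0, SE 0.14, adjusted p = 0.013). Both were lower in all 3 colon libraries with nivolumab and higher in all 3 of the dorsal horn. Mfhas1, a leucine-rich repeat protein linked to Toll-like receptor signalling, and Erc1, a scaffold of secretion sites, had the same non-overlapping opposite order, with differences of −0.85 (SE 0.13, adjusted p = 0.0255) and −0.85 (SE 0.15, adjusted p = 0.0405). Cnst, which aids connexin transport, had responses of −0.30 (SE 0.13) and 0.73 (SE 0.13), and its colon groups overlapped (difference −1.03, adjusted p = 0.0439). Cnst lost its call with the ganglion covariate (−0.84, adjusted p = 0.104) and with the smooth muscle covariate (−0.87, adjusted p = 0.0734). Erc1 lost its call with the smooth muscle covariate (adjusted p = 0.0555), and Erc1 and Mfhas1 lost theirs without the 2 ganglion-rich dorsal horn libraries, sham 3 and cancer 3 (adjusted p = 0.0776 for Erc1 and 0.0548 for Mfhas1).

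In 4 further genes the difference came mainly from the dorsal horn. Myo1e, an unconventional myosin at the cell membrane, had the smallest p of all genes. It had 126, 134 and 153 CPM in colon with nivolumab, against 153, 171 and 180 CPM with cancer, and 96.0, 84.0 and 90.3 CPM in dorsal horn with nivolumab, against 36.3, 25.3 and 26.7 CPM with cancer. The dorsal horn groups stood well apart, and the colon groups touched at 153 CPM (difference −1.90, SE 0.22, adjusted p = 0.00527). Cd9, a tetraspanin of the cell surface, had responses of −0.28 (SE 0.18) in colon and 1.56 (SE 0.18) in dorsal horn (difference −1.84, adjusted p = 0.013). Fam114a1 had −0.02 (SE 0.13) and 1.42 (SE 0.14) in the same order (difference −1.44, adjusted p = 0.013), and Diablo, which relieves the inhibition of caspases, had −0.28 (SE 0.14) and 0.92 (SE 0.14) (difference −1.20, adjusted p = 0.0335).

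Ganglion and Schwann cell markers were higher in the same dorsal horn libraries. In the dorsal horn Myo1e had 36.3, 25.3 and 26.7 CPM with cancer and at least 84.0 CPM in every library with nivolumab. Cd9 had 61.6, 50.8 and 85.6 CPM with cancer and at least 165 CPM in every library with nivolumab. Cancer 3, the ganglion-rich library of its group, thus had the highest Cd9 level of that group. Its Scn10a level of 99.8 CPM was below the 202 to 398 CPM with nivolumab, so it does not match their ganglion content. With the ganglion covariate the differences were −2.06 for Myo1e (adjusted p = 0.013), −1.50 for Cd9 (adjusted p = 0.0306) and −1.34 for Fam114a1 (adjusted p = 0.0297). Diablo lost its call there (−0.97, adjusted p = 0.0793) and with the smooth muscle covariate (−1.11, adjusted p = 0.0572).

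Chrm3 and Psca differed through the colon. Chrm3, a muscarinic receptor of smooth muscle and gland cells, had 0.836, 1.76 and 0.860 CPM in colon with nivolumab, against 6.91, 8.03 and 10.9 CPM with cancer, and 9.58, 11.4 and 8.28 CPM in dorsal horn with nivolumab, against 12.5, 9.74 and 10.5 CPM with cancer. The colon groups did not overlap and the dorsal horn groups did (difference −2.73, SE 0.40, adjusted p = 0.0173). Psca, a cell surface gene of the Ly6 family, had 5, 2 and 4 counts in colon with nivolumab, against 298, 1201 and 227 counts with cancer. The summed colon level was 0.00481 times that with cancer (95% exact interval 0.00239 to 0.00862, counting error only), and dorsal horn libraries held 2 to 10 counts each, so that the fitted difference of −6.77 (adjusted p = 0.0439) depends on counts near the floor. Sham colon had 0.103 ± 0.118 CPM of Psca (SD, n = 3), near the mean of 0.136 CPM with nivolumab and below the 27.0 CPM with cancer. The smooth muscle list had a negative difference in 20 of 20 genes (55.1% of all genes), 13 of them at an unadjusted p under 0.05 (10.8%) and none past the adjusted threshold. With the smooth muscle covariate the difference of Chrm3 was −2.49 (adjusted p = 0.038), and Psca lost its call (−5.60, adjusted p = 0.0943). Psca also lost it with the ganglion covariate (adjusted p = 0.0697).

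Positive differences were fewer. Card10, a scaffold that links receptors to NF-kappaB (chromosome 15, 78775138 to 78803042), had 55.1, 57.8 and 51.5 CPM in colon with nivolumab, against 34.8, 27.5 and 44.1 CPM with cancer, and 19.7, 21.4 and 23.4 CPM in dorsal horn with nivolumab, against 30.4, 37.7 and 31.3 CPM with cancer. It was higher in all colon libraries with nivolumab and lower in all those of the dorsal horn, as were 124 genes (0.875%). The responses of 0.63 (SE 0.16) and −0.62 (SE 0.16) gave a difference of 1.25 (SE 0.22, adjusted p = 0.0439). Card10 lost its call with the ganglion covariate (1.04, adjusted p = 0.0912) and with the smooth muscle covariate (1.23, adjusted p = 0.0631). With sham the means were 56.5 ± 3.80 CPM in colon and 21.7 ± 2.67 CPM in dorsal horn (SD, n = 3 each), on the side of the nivolumab libraries in both tissues. Colgalt1, which attaches galactose to collagen, had 115, 125 and 107 CPM in colon with nivolumab, against 72.3, 79.9 and 70.4 CPM with cancer, and 65.1, 61.5 and 55.6 CPM in dorsal horn with nivolumab, against 63.9, 78.4 and 84.6 CPM with cancer. Its colon groups were separate and its dorsal horn groups overlapped (difference 0.96, SE 0.15, adjusted p = 0.0272).

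Rtkn2, which binds a small GTPase, had 7, 5 and 8 counts in colon with nivolumab and 0 counts in all 3 colon libraries with cancer. The colon level was at least 5.03-fold higher with nivolumab, taking a floor of 3 counts over the cancer group, and the exact 95% lower limit of the ratio from counting error was 3.72. The fitted difference is no bound (adjusted p = 0.0439). In the dorsal horn it had 22.9, 18.4 and 19.8 CPM with nivolumab, against 16.9, 26.1 and 19.0 CPM with cancer, with full overlap.

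Ribosomal protein genes had positive differences throughout, with positive responses in the colon and responses near 0 in the dorsal horn. Rps15a, a protein of the small subunit (chromosome 7, 118104372 to 118116188), had 384, 399 and 348 CPM in colon with nivolumab, against 230, 206 and 237 CPM with cancer, and 134, 130 and 124 CPM in dorsal horn with nivolumab, against 123, 157 and 158 CPM with cancer. The colon groups were far apart and those of the dorsal horn overlapped. The responses were 0.75 (SE 0.11) and −0.17 (SE 0.11), and the difference of 0.92 (SE 0.16) passed (adjusted p = 0.0405). With the smooth muscle covariate it missed the threshold (0.88, adjusted p = 0.0581), and with the ganglion covariate it was 1.09 (adjusted p = 0.0212). Sham colon had 353 ± 15.7 CPM (SD, n = 3).

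Of 72 cytosolic ribosomal protein genes listed, 68 were in both tables and tested. Each of the 68 had a positive difference (44.9% of all genes), 63 of them at an unadjusted p under 0.05 (5.66% of all genes). Only Rps15a passed an adjusted p of 0.05 (0.0282% of all genes). The median difference was 0.67, made of a median response of 0.66 in colon and −0.03 in dorsal horn. In the colon contrast of the fit to both tissues 48 of the 68 passed an adjusted p of 0.05, all higher (all genes in either direction: 1.4%). In the dorsal horn contrast 0 passed (all genes: 0.727%). That fit gave each gene 1 spread for both tissues, although colon libraries scattered more, so the colon count may be too high. The list's mean level was 9.32, 9.17 and 8.94 log2 CPM in colon with nivolumab, against 8.46, 8.32 and 8.70 with cancer, without overlap, and 7.12, 7.03 and 7.11 in dorsal horn with nivolumab, against 7.08, 7.10 and 7.13 with cancer, with overlap. Ribosomal protein genes have many processed copies in the genome, and reads shared with them cannot be told apart in these counts. Of the 50 with a promoter window, 25 (50%) had a run that starts with C and goes on with at least 4 pyrimidines within 5 bases of the start, as printed for Rps15a, against 23.7% of all tested genes with a window. Oxidative phosphorylation genes leaned the same way with small sizes, with a positive difference in 41 of 45 (44.9% of all genes), 1 of them at an unadjusted p under 0.05, a median of 0.25 and 0 past the threshold.

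**Figure D4:**
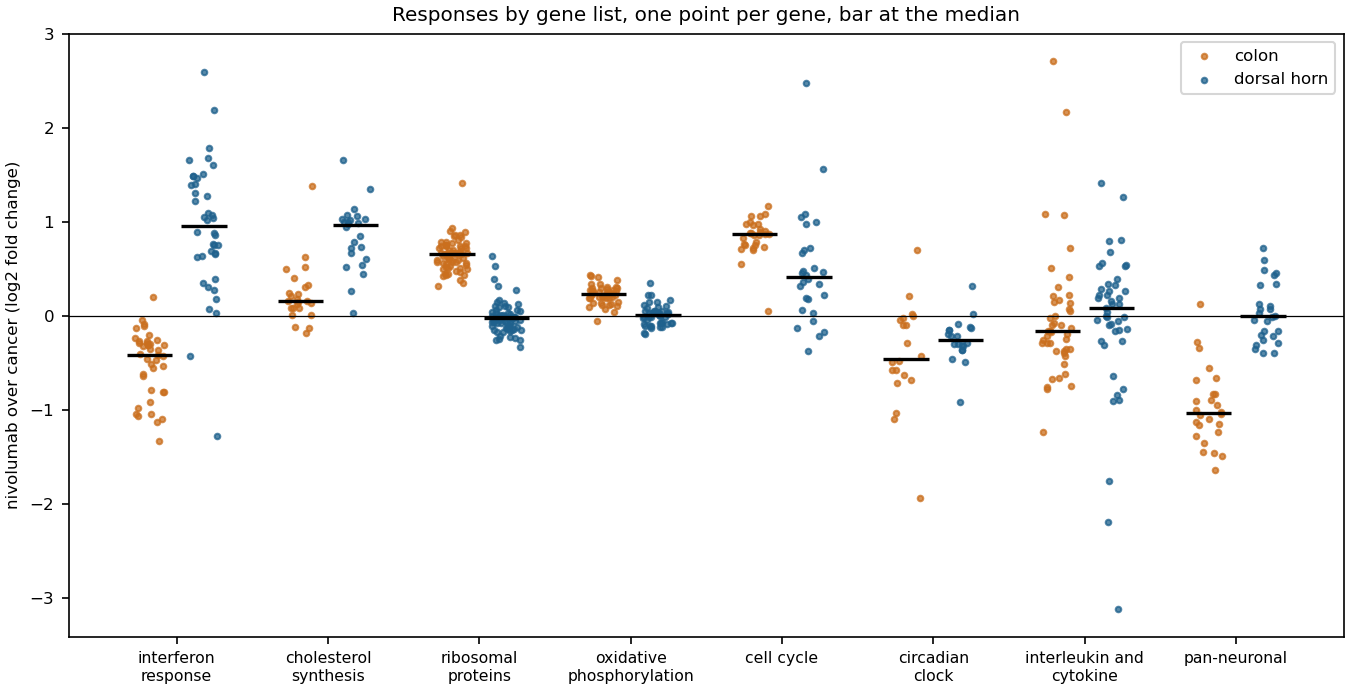
Log2 fold change of nivolumab over cancer (y axis) for the tested genes of 8 lists, with colon left of dorsal horn in each pair, 1 point per gene and a bar at the median. Interferon medians lie on opposite sides of 0 (−0.41 and 0.96), cholesterol synthesis has its larger median in the dorsal horn and ribosomal proteins in the colon, and cell cycle medians are positive in both.

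Cholesterol synthesis genes had responses of 1 sign and unequal size. All 24 on the list were tested, 21 had positive responses in both tissues (25.5% of all genes), and the median response was 0.16 in colon and 0.97 in dorsal horn. The difference was negative for 22 (55.1% of all genes), 13 of them at an unadjusted p under 0.05 (10.8% of all genes), with a median of −0.58 and 0 past the adjusted threshold. In the dorsal horn contrast of the fit to both tissues 13 of the 24 passed, all higher with nivolumab (all genes in either direction: 0.727%). In the colon contrast 0 passed (all genes: 1.4%). Schwann cell and central myelin genes were higher in the same dorsal horn libraries: the Schwann list averaged 6.62 to 6.84 log2 CPM with nivolumab, against 4.72 to 5.92 with cancer, and the central myelin list 9.07 to 9.23, against 7.96 to 8.79. Their part in the cholesterol result was not tested. With the ganglion covariate the median difference was −0.99, and without the 2 ganglion-rich dorsal horn libraries it was −0.47. Msmo1, an enzyme late in the pathway, had 156, 209 and 164 CPM in colon with nivolumab, against 199, 208 and 195 CPM with cancer, and 215, 210 and 203 CPM in dorsal horn with nivolumab, against 120, 104 and 82.2 CPM with cancer. The colon groups overlapped and the dorsal horn groups did not (difference −1.22, SE 0.24, adjusted p = 0.0551). Sc5d, a sterol desaturase, had responses of 0.09 (SE 0.14) and 1.02 (SE 0.14) and a difference of −0.94 (adjusted p = 0.071). Tm7sf2, Mvd and Insig1 were among the 4 members with an unadjusted p under 0.05 and a positive response in both tissues, with colon responses of 0.41, 0.62 and 0.53 and dorsal horn responses of 0.85, 1.14 and 0.52 in that order.

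Of 21 cytochrome P450, glutathione and glucuronosyl transferase genes tested, 6 had a positive and 1 a negative difference at an unadjusted p under 0.05, against 5.66% and 10.8% of all genes, and 0 passed. Gsta3, a glutathione transferase, had 19.1, 22.1 and 23.4 CPM in colon with nivolumab, against 3.63, 6.77 and 5.34 CPM with cancer, and 2.52, 2.93 and 2.13 CPM in dorsal horn with nivolumab, against 1.69, 2.31 and 3.48 CPM with cancer. Its colon groups were far apart and its dorsal horn groups overlapped (difference 2.01, SE 0.40, adjusted p = 0.0551). Gstm1, another of these transferases, had responses of 0.55 (SE 0.19) in colon and −0.79 (SE 0.19) in dorsal horn, without overlap in either tissue (difference 1.34, adjusted p = 0.0551). Bag3, a co-chaperone of the heat shock response, had a difference of −1.43 (SE 0.28, adjusted p = 0.0551), from responses of −0.47 and 0.96.

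Responses shared by both tissues were tested with the larger of the p-values of the 2 tissues, and 0 of 14164 genes (0%) passed 0.05 after adjustment in edgeR, against 3 with DESeq2. At an unadjusted p under 0.05 in each tissue, 188 genes (1.33%) had responses of 1 sign, 112 higher in both (0.791%) and 76 lower in both (0.537%), and 130 (0.918%) had responses of opposite sign. Of the 130, 95 (0.671%) were lower in the colon and higher in the dorsal horn and 35 (0.247%) the reverse. Libraries did not overlap in either tissue for 181 genes higher in both (1.28%) and 197 lower in both (1.39%). The 4 genes of each direction with the smallest joint p are given as values, since none of them passed the joint test.

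Wdfy1, an adaptor of Toll-like receptor signalling, had 62.2, 29.2 and 35.6 CPM in colon with nivolumab, against 81.8, 90.5 and 91.5 CPM with cancer, and 26.7, 26.9 and 27.5 CPM in dorsal horn with nivolumab, against 66.3, 64.4 and 59.6 CPM with cancer. It was below the cancer libraries in all 6 libraries with nivolumab. The responses of −1.06 (SE 0.22, adjusted p = 0.0319) and −1.23 (SE 0.22, adjusted p = 0.0208) each passed in their own tissue, and the difference was 0.18 (SE 0.30). Sham libraries had 33.1 ± 6.92 CPM in colon and 28.3 ± 1.85 CPM in dorsal horn (SD, n = 3 each), close to the nivolumab means of 42.3 ± 17.5 and 27.0 ± 0.391 CPM. Riok3, a kinase of ribosome maturation and antiviral signalling, had responses of −0.83 (SE 0.14) and −0.60 (SE 0.14), the zinc finger gene Zfp612 −0.51 (SE 0.13) and −0.78 (SE 0.13), and Sp140, a chromatin reader of immune cells, −0.86 (SE 0.23) and −1.24 (SE 0.24), each with the colon first. Libraries with nivolumab were below those with cancer without overlap in both tissues for each of the 3, and Sp140 belongs to a family of similar genes whose reads may be shared.

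Acp1, a low molecular weight phosphatase, had 82.5, 82.6 and 86.5 CPM in colon with nivolumab, against 23.4, 20.8 and 52.8 CPM with cancer, and 77.8, 72.4 and 78.2 CPM in dorsal horn with nivolumab, against 45.4, 32.3 and 35.3 CPM with cancer. All 6 libraries with nivolumab were above the cancer libraries of their tissue (responses 1.38, SE 0.26, and 1.01, SE 0.26). Sham levels were 78.8 ± 5.81 CPM in colon and 74.9 ± 4.33 CPM in dorsal horn (SD, n = 3 each), near those with nivolumab. Rplp0, a protein of the ribosomal stalk, had 2083, 2332 and 1813 CPM in colon with nivolumab, against 1120, 856 and 1347 CPM with cancer, and 231, 230 and 231 CPM in dorsal horn with nivolumab, against 117, 165 and 163 CPM with cancer. It differed from most ribosomal protein genes in having a response of 0.63 (SE 0.18) in the dorsal horn, beside 0.91 (SE 0.18) in the colon. Ublcp1, a phosphatase that acts on the proteasome, had responses of 0.83 (SE 0.11) and 0.46 (SE 0.11), and Asnsd1 0.47 (SE 0.11) and 0.47 (SE 0.11). The groups of both genes did not overlap in either tissue.

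Among the lists, cell cycle genes had positive responses in both tissues in 23 of 28 tested against 25.5% of all genes, with medians of 0.87 in colon and 0.41 in dorsal horn. None passed in either tissue, and the list's mean level overlapped in the colon, at 3.78, 6.14 and 6.2 log2 CPM with nivolumab, against 5.41, 2.82 and 5.26 with cancer. In the dorsal horn it was 1.80, 1.87 and 1.80 log2 CPM with nivolumab, against 1.12, 1.37 and 1.19 with cancer, without overlap. Macrophage and microglia genes were positive in both tissues in 15 of 23. Negative responses in both tissues were found for 14 of 20 circadian clock genes, 16 of 23 glucocorticoid-induced genes and 15 of 23 immediate early genes, against 26.8% of all genes, and none of these had a difference past the threshold.

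Lists of other tissues and cell types had large median differences and no gene past the threshold. Dorsal root ganglion genes had a median difference of −2.71 over 16 tested genes, from a median of 2.44 in the dorsal horn, and Schwann cell genes −1.33 over 18. Skeletal muscle genes had −2.24 over 14, with 2.67, 5.93 and 4.81 log2 CPM in dorsal horn with nivolumab, against 0.38, 4.36 and 0.49 with cancer. Pan-neuronal genes had a negative difference in 26 of 26 (55.1% of all genes), from a median response of −1.03 in colon and 0.00 in dorsal horn, and 0 of them had an unadjusted p under 0.05. Neutrophil genes had a median difference of 3.11 over 12, with dorsal horn means of 0.29 to 1.56 log2 CPM with nivolumab, against 0.65 to 3.55 with cancer. T and NK cell genes had 0.87 over 23, from a median response of −0.22 in colon and −1.10 in dorsal horn. Their dorsal horn means lay near the floor, at −1.68 to −1.41 log2 CPM with nivolumab, against −1.59 to −0.40 with cancer. Colon epithelium genes had a median difference of 1.40 over 21, from a median response of −0.19 in colon and −1.55 in dorsal horn. Their dorsal horn means were also low, at −1.12 to −0.40 log2 CPM with nivolumab, against −0.74 to 0.27 with cancer.

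**Figure D5:**
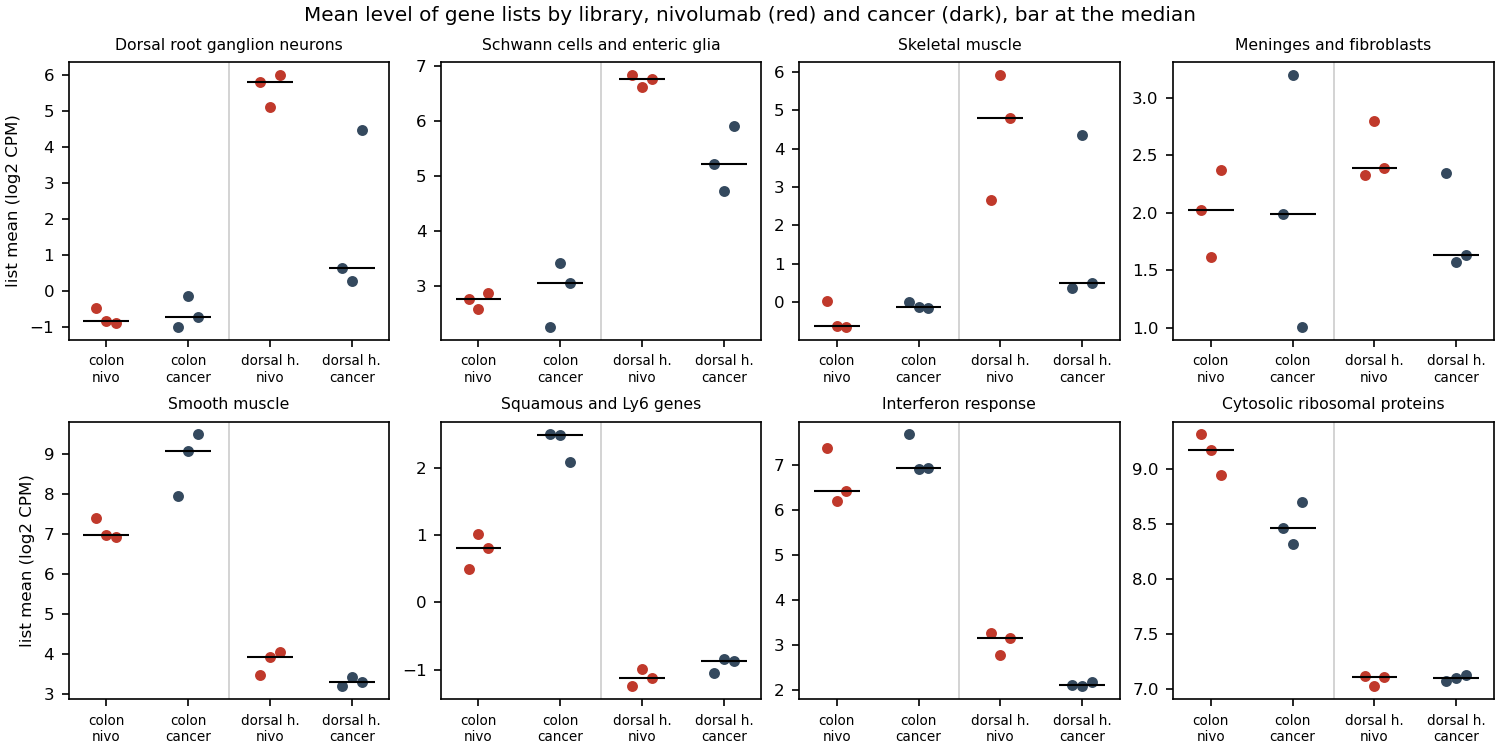
Mean level of 8 gene lists in log2 CPM (y axis) in each library, with nivolumab in red left of cancer in dark, colon left of dorsal horn, and a bar at the median of 3 libraries. Ganglion neuron, Schwann cell and skeletal muscle lists are higher in most dorsal horn libraries with nivolumab, smooth muscle and squamous lists are lower in colon with nivolumab, and the interferon list is separated in the dorsal horn.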

How the data were processed

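Colon and dorsal horn RNA of mice was sequenced in 18 libraries. The deposited values are whole-number counts per gene, 1 table per tissue, not normalised. The submitters' processing notes list StringTie, HISAT2, Trimmomatic and FastQC 0.11.5, and GRCm38 as build, but not what each did. The tool that made the counts, its strand setting and the gene filter were not given in the sources used here. Without strand, antisense and overlapping partners share reads. Coordinates are from GENCODE M21 (GRCm38), matched by symbol for 14162 of 14164 tested genes.

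Genes in both tables were fitted together with edgeR 4.0.16 (quasi-likelihood, robust, TMM, default expression filter by group) in R 4.3.3, with 1 coefficient for each of 6 groups. The contrasts were nivolumab over cancer in each tissue and the colon response minus the dorsal horn response, two-sided, adjusted over all genes tested by Benjamini and Hochberg. A joint response was tested with the larger of the 2 p-values. Biological variation (coefficient) came to 0.294 in the joint fit, 0.376 for colon libraries and 0.169 for dorsal horn libraries fitted alone. The contrasts of each tissue came from the joint fit, with 1 spread per gene for both tissues. Their p-values may therefore be too small in the colon and too large in the dorsal horn. CPM are TMM-scaled and list means are of log2 CPM with a prior count of 2. Gene lists are described by counts and medians, with no set test. The procedure was tested on simulated data. Alternatives used DESeq2 1.42.0, limma 3.58.1 (voom), other scalings and filters, covariates and fewer libraries; the covariate fits with smooth muscle were chosen after seeing the data.

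Genes were named by a rule: the 10 largest differences in each direction past the threshold, with a mean of at least 1 log2 CPM in each tissue and no overlap in at least 1 tissue; up to 6 opposite genes in each direction by smallest p; up to 8 shared genes in each direction, or the 4 of smallest joint p where fewer passed; per list 1 to 4 members, by smallest p, with more than 2 only if past the threshold; and Pdcd1, Cd274 and Pdcd1lg2. The members that the rule gave for many of the lists are not named in the text. Other called genes and the interferon and cholesterol genes added to these were named after their values were seen. Members, the 53 lists and the tests were chosen with earlier results of these data known. No 2 libraries of a group agreed within sampling noise (lowest chi-square per degree of freedom 9.6). The labels do not say that equal replicate numbers mark shared animals or days. Deviations of equal numbers correlated at −0.111 to 0.015 across tissues. Between nivolumab and cancer they correlated at 0.147, 0.193 and 0.158 in the dorsal horn, all above 0.1, and at −0.378, −0.413 and −0.0672 in the colon, so the numbers were not taken to pair the samples of a comparison over both tissues. The block is an alternative. Intervals and floors cover counting error only. Results of some genes are not reported here, although the counts include them.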

Additional observations from a re-analysis of the deposited data

Results flagged for a closer look

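The responses of the tissues differed by the test of the difference itself (edgeR, adjusted p under 0.05) for 18 genes, of which 17 are given here, each with its log2 difference, colon response minus dorsal horn response. In the negative direction Myo1e was at −1.90, Fam114a1 at −1.44, Cd9 at −1.84, Capn5 at −1.0, Chrm3 at −2.73, Sh3d19 at −1.12 and Itgb1 at −1.80. Also negative were Mfhas1 at −0.85, Igtp at −2.59, Diablo at −1.20, Erc1 at −0.85, Cnst at −1.03 and Psca at −6.77. In the positive direction Colgalt1 was at 0.96, Rps15a at 0.92, Card10 at 1.25 and Rtkn2 at 5.69. The values of Psca and Rtkn2 rest on libraries near 0 counts.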

How the results depend on the processing

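The count of 18 genes past the threshold was 747 with DESeq2 (297 positive, 450 negative), 27 with upper-quartile factors (14 positive, 13 negative, against 4 and 14), 56 with at least 10 counts in 3 libraries of each tissue, 0 with only the 12 libraries compared (2160 at an unadjusted p under 0.05), 38 with separate fits, 46 with voom, 81 with the ganglion covariate, 37 with the smooth muscle covariate and 129 with both. It was 84 without the 2 ganglion-rich dorsal horn libraries, sham 3 and cancer 3, together. With the replicate number as a block within each tissue it was 96, 16 of the 18 among them, and with a block across tissues 0 (1657 unadjusted). Erc1 (adjusted p = 0.0527) and Rtkn2 (0.0557) missed the threshold with the block within tissue, and Cd74, Cish, Msmo1, Sc5d, Gsta3, Gstm1 and Bag3 passed it (0.0182 for Bag3 to 0.0485 for Cd74). Without 1 library it ran from 1 to 138: 1 without dorsal horn sham 1 or nivolumab 1, 5 without cancer 2, 6 without nivolumab 3, 8 without sham 2, 10 without nivolumab 2 and 34 without cancer 3, and in the colon 7 without nivolumab 2, 12 without sham 1, 30 without nivolumab 3, 98 without cancer 1, 116 without sham 2, 132 without sham 3, 136 without cancer 3 and 138 without nivolumab 1. Each tested gene of the 18 kept its sign in every alternative and, except 1 in voom, an unadjusted p under 0.05.

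The count of opposite genes (10) was 207 with DESeq2, 24 with the stricter filter, 0 with 12 libraries, 23 with voom, 33, 23 and 61 with the ganglion, smooth muscle and both covariates, 17 without the 2 ganglion-rich libraries, 39 with the block within tissue and 0 to 60 without 1 library. The joint test called 3 genes with DESeq2, and 0 to 1 without 1 library. Genes with an unadjusted p under 0.05 in each tissue and opposite signs (130) were 220 with DESeq2 and 85 to 196 without 1 library, and those of 1 sign (188) were 119 with both covariates, 110 without the 2 ganglion-rich libraries and 96 to 248 without 1 library. Lists with a gene past the threshold (3) were 36, 6, 0, 10, 5, 8 and 11 with DESeq2, the stricter filter, 12 libraries, separate fits, voom, the ganglion and both covariates, 11 and 0 with the blocks within and across tissues, and 0 to 16 without 1 library. Interferon genes with a negative difference at an unadjusted p under 0.05 (30) were 26 to 33 without 1 library and 24 to 33 otherwise, ribosomal genes with a positive one (63) 58 to 66, and cholesterol genes (13) 12 to 16 without 1 library and 9 (smooth muscle covariate) to 19 (ganglion covariate) otherwise. The sign turned for Pdcd1 without the 2 ganglion-rich dorsal horn libraries (0.26), without cancer 3 (0.20) or nivolumab 1 (0.18; −1.05 to 0.20 over all libraries left out), for Stmn2 with the smooth muscle covariate (0.36), and with both covariates for Stmn2 (0.65), Grik1 (0.70), Scn9a (0.38) and Scg3 (0.23). The cause of these changes was not tested. The spread of the colon libraries and 3 libraries per group limit the precision.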
